A study of Mus musculus with 8 samples.

Results

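The 26S proteasome is the large protease that degrades ubiquitin-tagged proteins, and mouse oocytes carry a stock of RNAs for its subunits. The 43 genes described here are those whose symbol starts with Psma, Psmb, Psmc, Psmd, Psme, Psmf or Psmg and that were listed in all 8 deposited tables, out of 15962 such genes. The meiosis protein gene Psmc3ip and a pseudogene symbol were left out by this rule. In the 20S core, 2 outer rings of α subunits (Psma genes) gate the barrel and 2 inner rings of β subunits (Psmb genes) hold the active sites. The 19S regulatory particle caps the core. Its ATPases (Psmc genes) unfold substrates, and its other subunits (Psmd genes) receive ubiquitin chains and remove them. Dedicated chaperones (Psmg genes for the core, and Psmd5, Psmd9 and Psmd10 for the particle) assist assembly but are not part of the finished enzyme. All rings need their subunits in equal numbers, and in maturing oocytes the proteasome is known for degrading cyclin B and securin at anaphase. The 43 genes were 7 of the α ring, 7 of the constitutive β ring, the thymoproteasome subunit Psmb11, 6 ATPases, 11 other 19S subunits, 7 assembly chaperones, and the regulators Psme2, Psme3, Psme4 and Psmf1. Psma8, Psme1 and Psme2b were listed for GV and MII oocytes but not for the injected oocytes, at most 0.822 TPM in any library. The immunoproteasome symbols Psmb8, Psmb9 and Psmb10 were in none of the tables.

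The study compared GV oocytes, which are arrested in prophase, with MII oocytes, which have matured to the second metaphase, both taken from in vitro culture without injection. It also compared MII oocytes that overexpressed wild-type BTG4 (Btg4wt) with MII oocytes that overexpressed a mutant (Btg4tm), in which 3 neighbouring phosphosites, 1 threonine and 2 serines, were changed to alanine. BTG4 is an adaptor that brings the CCR4-NOT deadenylase to maternal mRNAs. All oocytes came from superovulated female ICR mice, an outbred stock, of 6 weeks, and fully grown oocytes were injected with capped cRNA from a Myc-tagged vector. Each library held 15 oocytes without zona pellucida, and 2 libraries per group were analysed. Nothing states that the libraries of a group came from separate mice or cultures, so p-values measure only the spread between these libraries, which may be technical. Smart-seq2 starts reverse transcription from an oligo(dT) primer, so that the loss of an RNA and the shortening of its poly(A) tail cannot be told apart here. Nor can less RNA in each oocyte be told apart from fewer oocytes holding it.

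All 8 oocyte markers were listed in every library, with summed levels of 29900 to 45300 TPM. Of 11 cumulus and granulosa cell markers, 4 were listed in all tables, and those listed in a library summed to 24.1 to 32.4 TPM. Of 7 leukocyte markers only Laptm5 was listed in all tables. Of these markers, the zona genes Zp1, Zp2 and Zp3 fell in MII (log2 fold changes of -1.72, -2.17 and -2.59) and were higher in Btg4tm than in Btg4wt (1.23, 1.59 and 2.37). The granulosa cell marker Inha also fell in MII (-1.72) and was higher in Btg4tm (1.74), at 0 and 0.532 scaled TPM in MII and at most 9.83 in any library. The other granulosa cell markers tested, Cyp19a1 and Kitl, went the other way without a call. Their log2 fold changes were 0.63 and 0.95 in MII, and -0.23 and -0.76 in Btg4tm. Laptm5 was lower in Btg4tm (-1.36). The part of other cells in the results was not tested. Btg4 RNA itself, which can include injected RNA, was at 5792 and 6002 scaled TPM in MII, 5178 and 5510 in Btg4wt, and 3725 and 4068 in Btg4tm, so it was not higher in the injected groups. Mitochondrially encoded RNAs made up 0.626% and 0.652% of the listed TPM in GV, 2.71% and 2.60% in MII, 2.05% and 1.75% in Btg4wt, and 0.765% and 1.02% in Btg4tm. Their part in the differences below was not tested. TPM are shares of a library, and the values below were scaled between libraries by the median of ratios.

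The 3′ end of an mRNA carries the signals that set its tail. The hexamer (AATAAA or ATTAAA) directs cleavage and polyadenylation, and the cytoplasmic polyadenylation element (CPE, here TTTTAT or TTTTAAT) is known to direct tail lengthening during maturation. These letters were searched on the sense strand in the last 100 bases of 1 principal transcript per gene (GENCODE M21), and a CPE may overlap a hexamer. A hexamer was found in 39 of the 43 genes (90.7%, against 71.7% of 21713 protein-coding genes), and a CPE in 6 (14.0%, against 16.0%), namely Psma1, Psma5, Psmb1, Psmb3, Psmg1 and Psmg3. The β ring holds both the largest falls and the flattest member of the set, so the 30 bases around the hexamer are shown for 5 of its subunits, all in the 3′ UTR within the last exon (GRCm38, 5′ to 3′). Capitals mark the hexamer and any CPE that touches it. The first 4 are of subunits whose RNA fell in MII and the last is of a subunit whose RNA was not called, and Psmb4 had no hexamer in this window.
Psmb7 (chr2:38588039-38588068, minus strand): ttaaAATAAATAAATAAAaagacaaaaaac
Psmb1 (chr17:15475027-15475056, minus strand): ttttgcttttTTTTAATAAActtctgttct
Psmb5 (chr14:54614124-54614153, minus strand): ctccatggctatAATAAAtaatagtacctc
Psmb6 (chr11:70527620-70527649, plus strand): gacgcagaagctAATAAAcagtttgttaaa
Psmb3 (chr11:97713467-97713496, plus strand): ttgtttttctTTTTAATAAAattgcctttc

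In GV oocytes proteasome RNAs were abundant. TPM are normalised for gene length, so levels of different genes can be set side by side, within limits. Tail length under oligo(dT) priming and reads lost to gene copies can also affect a level. The group means ran from 3.06 scaled TPM for Psmg2 to 1060 for Psmb2, with a median of 130.5, and 29 of the 43 were over 100. Together the 43 genes took 1.01% and 1.0% of the listed TPM in both GV libraries, 0.566% and 0.555% in MII, 0.588% and 0.555% in Btg4wt, and 0.887% and 0.886% in Btg4tm. The MII and Btg4wt libraries were therefore both below the others, with no overlap. In MII, 18 genes were over 100 scaled TPM and 12 were under 20, against 4 under 20 in GV.

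**Figure D1:**
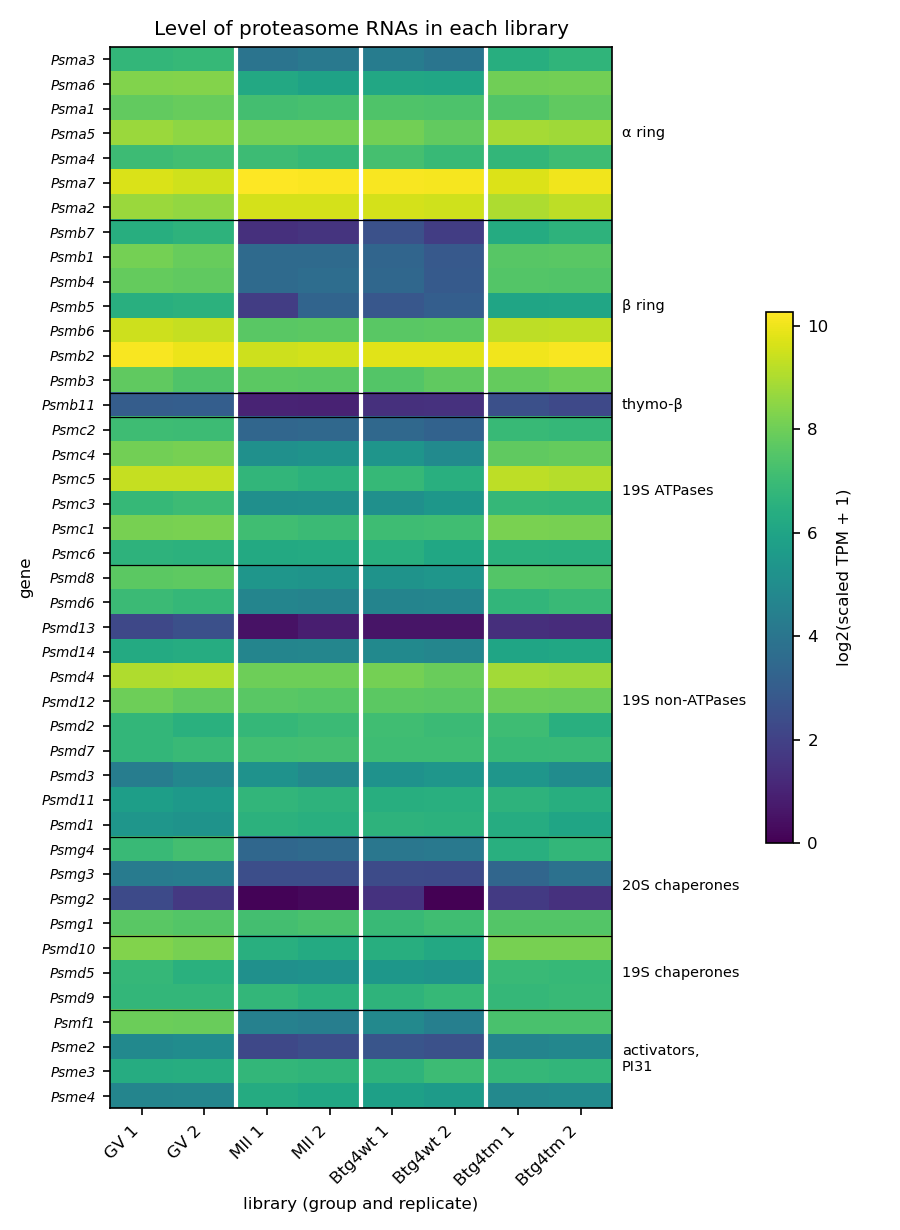
Level of each of the 43 proteasome RNAs (rows, grouped by complex and ordered by the MII over GV change) in each of the 8 libraries (columns), as log2(scaled TPM + 1). Within most groups of genes some rows turn dark in the MII and Btg4wt columns while others, such as Psma7 and Psmb2, stay bright in every column.

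Between GV and MII, 25 of the 43 proteasome RNAs fell, 3 rose and 15 were not called (limma, called at a Benjamini-Hochberg adjusted p under 0.05 with a log2 fold change beyond 1 in size). The background was 24% of the 13968 genes tested for falls and 12.5% for rises, and all 43 genes passed the filter on low values. The median log2 fold change was -1.65 over the 43 genes and 0.00 over all genes tested. Of the 43 genes, 32 were lower in both MII libraries than in both GV libraries and 9 were higher (41.6% and 41.1% of all genes tested). By complex, 7 of 14 constitutive core subunits fell (median -1.18), 10 of 17 subunits of the regulatory particle fell and 2 rose (median -1.11), and 5 of 7 assembly chaperones fell (median -1.81). The differences between these classes were not tested. The spread within each class, from -5.05 to 0.94 in the core, was wider than the differences between their medians.

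**Figure D2:**
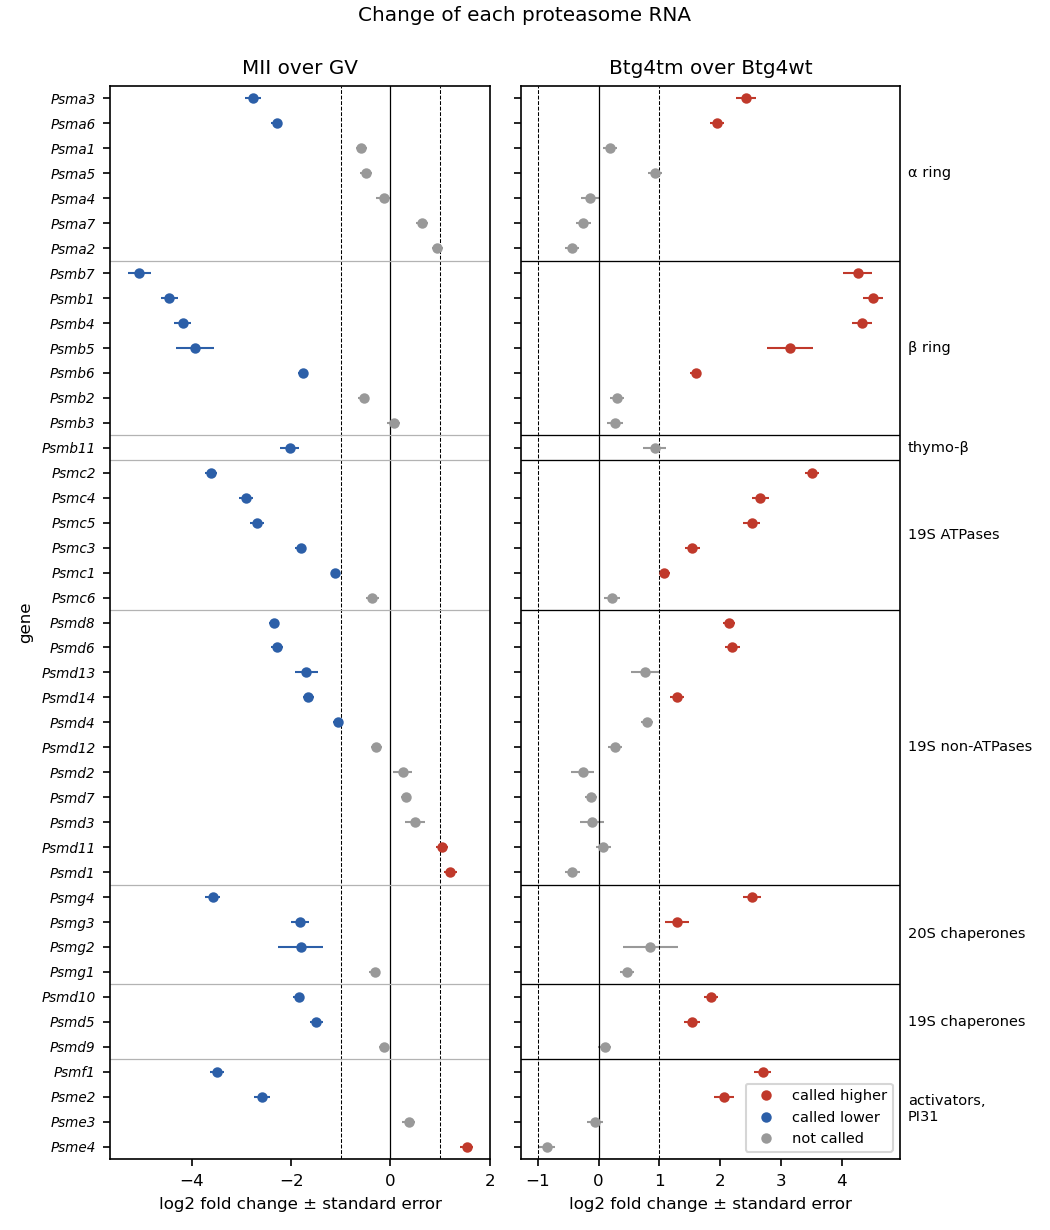
Log2 fold change of each proteasome RNA with its standard error (limma on log2(scaled TPM + 1)), for MII over GV (left) and Btg4tm over Btg4wt (right), with blue for called lower, red for called higher and grey for not called. Dashed lines mark a log2 fold change of 1 in either direction, and 25 genes are blue and 3 red on the left against 21 red on the right. With scaling to mitochondrially encoded RNAs the 3 red points on the left lie below 0.

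The β ring showed the largest falls. Psmb7, a catalytic subunit with trypsin-like activity, was at 84.2 and 98.7 scaled TPM in GV, 1.67 and 1.88 in MII, 4.86 and 2.60 in Btg4wt, and 78.5 and 97.0 in Btg4tm. Psmb1, a structural β subunit, was at 274.6 and 235.9 in GV, 10.7 and 10.7 in MII, 9.20 and 6.26 in Btg4wt, and 192.2 and 197.8 in Btg4tm. Psmb4, another structural subunit, was at 224.7 and 216.3, 10.7 and 11.7, 9.80 and 6.46, and 180.7 and 177.4 in the same order. For these 3 RNAs every MII and Btg4wt library was far below every GV and Btg4tm library. Psmb5, the chymotrypsin-like subunit, was at 87.0 and 95.2 in GV, 2.68 and 8.91 in MII, 5.86 and 7.28 in Btg4wt, and 65.0 and 66.8 in Btg4tm, so its MII libraries lay farther apart than those of the other 3. The log2 fold changes in MII were -5.05 ± 0.24 (SE) for Psmb7, -4.45 ± 0.17 for Psmb1, -4.18 ± 0.17 for Psmb4 and -3.93 ± 0.38 for Psmb5, on the log2(scaled TPM + 1) scale, with limma adjusted p of 1.3e-06, 5.9e-07, 7.6e-07 and 4.6e-05. Psmb6, the caspase-like subunit, fell by 1.77 (SE 0.09, limma adjusted p = 1.8e-06) from a mean of 686.5, which lost its call with length and GC trends removed (-0.91). RNAs of all 3 catalytic subunits of the constitutive core thus fell.

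The other β subunits behaved differently. Psmb3 was at 212.4 and 173.9 scaled TPM in GV, 204.7 and 197.7 in MII, 183.6 and 212.1 in Btg4wt, and 224.9 and 250.6 in Btg4tm. Its GV and MII libraries overlapped, and its log2 fold change of 0.07 ± 0.13 (limma adjusted p = 0.68) changed sign with several settings. Psmb2, the most abundant β RNA, had a log2 fold change of -0.54 ± 0.11 (limma adjusted p = 0.0023), which did not reach the fold limit. Psmb1, which fell, and Psmb3, which was not called, have the same run of letters at their 3′ ends, a CPE overlapping the hexamer. Over the 43 genes, a CPE was found in 2 of the 25 that fell, 4 of the 15 not called and 0 of the 3 that rose. These counts describe letters in a window and not sites in use.

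Psmb11, the catalytic β subunit of the thymus proteasome, was at 7.16 and 7.26 scaled TPM in GV, 1.04 and 0.984 in MII, 1.71 and 1.78 in Btg4wt, and 4.66 and 3.74 in Btg4tm. It fell in MII by 2.03 on the log2 scale (SE 0.19, limma adjusted p = 4.5e-05) and was below every constitutive β RNA in the means of all 4 groups. Its gene lies next to Psmb5 on chromosome 14, on the other strand.

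In the α ring only Psma3 and Psma6 fell, 2 of 7 genes (28.6%, near the 24% of all genes tested). Psma3 was at 108.5 and 116.0 scaled TPM in GV, 14.3 and 16.9 in MII, 19.04 and 14.8 in Btg4wt, and 85.6 and 103.6 in Btg4tm, a log2 fold change in MII of -2.77 ± 0.16 (limma adjusted p = 3.6e-06). Psma6 had a log2 fold change of -2.29 ± 0.11. Psma4 was at 129.0 and 142.0 in GV, 130.0 and 115.5 in MII, 151.0 and 119.0 in Btg4wt, and 111.1 and 133.5 in Btg4tm, and its groups overlapped in both comparisons. Psma7 and Psma2, the most abundant α RNAs in MII, were higher in both MII libraries than in both GV libraries, with log2 fold changes of 0.63 ± 0.12 and 0.94 ± 0.11 that stayed under the fold limit (Psma2 passed it without GV replicate 1, at 1.01, and Psma7 with length and GC trends removed, at 1.55) and were below 0 when scaled to mitochondrially encoded RNAs (-1.59 and -1.27).

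The RNAs of subunits that stand in equal numbers in 1 ring therefore drew apart in MII. Within a library the ratio of 2 RNAs does not depend on the scaling between libraries. The highest β ring RNA exceeded the lowest 13.5- and 10.3-fold in GV, 425- and 397-fold in MII, 180- and 346-fold in Btg4wt, and 15.9- and 17.2-fold in Btg4tm. The α ring gave 7.59 and 6.31 in GV, 85.2 and 69.8 in MII, 60.3 and 74.4 in Btg4wt, and 9.85 and 10.1 in Btg4tm. In both rings every MII and Btg4wt library had a wider range than every GV and Btg4tm library, and the same held for the ATPase ring, at 6.65 and 6.91, 14.4 and 12.7, 13.1 and 16.4, and 6.57 and 6.20. These ratios are a description, no test was run on them, and ratios within other sets of genes were not computed. In MII the lowest β RNA was Psmb7, at only 1.67 and 1.88 scaled TPM. The RNAs that form a ratio can also differ between groups. In the ATPase ring they were Psmc5 over Psmc6 in GV and Psmc1 over Psmc2 in MII. The summed level of the α ring was 2294 to 2436 scaled TPM in GV and 2559 to 2635 in MII, while that of the β ring was 2467 to 2729 in GV and 1137 to 1182 in MII. Unlike the ratios, these sums depend on the scaling between libraries. When scaled to mitochondrially encoded RNAs, Psma7 and Psma2, the most abundant α RNAs in MII, had log2 fold changes in MII of -1.59 and -1.27.

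**Figure D3:**
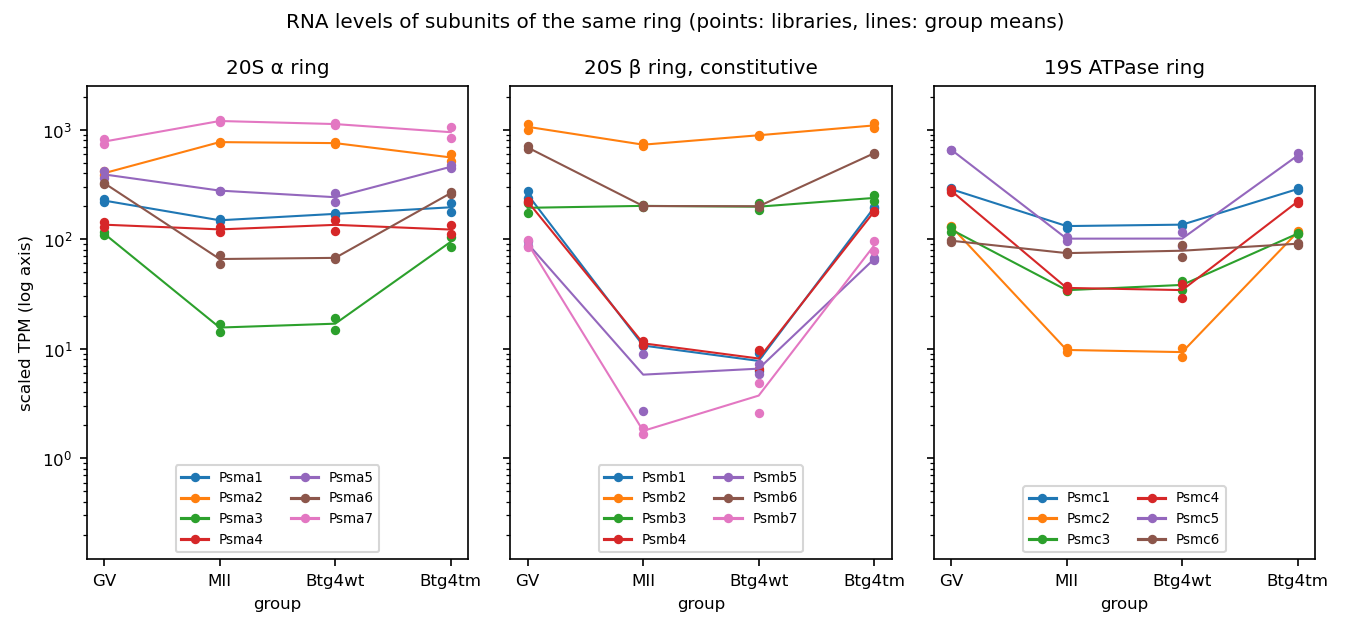
Scaled TPM on a log axis of each subunit RNA of the α ring, the constitutive β ring and the ATPase ring, with a point per library and a line through the group means. The lines of a ring fan out in MII and Btg4wt and draw together in GV and Btg4tm, most widely in the β ring.

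Of the 6 ATPases, 5 fell in MII. Psmc2 was at 132.4 and 128.5 scaled TPM in GV, 9.41 and 10.1 in MII, 10.1 and 8.47 in Btg4wt, and 118.5 and 114.2 in Btg4tm, a log2 fold change in MII of -3.61 ± 0.12 (limma adjusted p = 4.8e-07). Psmc4, Psmc5, Psmc3 and Psmc1 also fell, with log2 fold changes of -2.91, -2.69, -1.81 and -1.11, and Psmc1 lost its call with length and GC trends removed (-0.59). Psmc6 was at 98.5 and 95.0 in GV, 73.5 and 75.5 in MII, 88.8 and 68.0 in Btg4wt, and 92.4 and 89.3 in Btg4tm. Its log2 fold change of -0.37 ± 0.13 was the smallest of this ring and was not called, although both MII libraries were below both GV libraries.

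The 11 other 19S subunits were divided. Psmd8, Psmd6, Psmd13, Psmd14 and Psmd4 fell, Psmd1 and Psmd11 rose, and 4 were not called. Psmd8, of the lid, was at 200.4 and 210.6 scaled TPM in GV, 40.5 and 39.0 in MII, 38.0 and 40.7 in Btg4wt, and 180.1 and 175.5 in Btg4tm, a log2 fold change in MII of -2.34 ± 0.10 (limma adjusted p = 8.3e-07). Psmd14, the deubiquitinase of the lid, fell by 1.65, and Psmd4, a ubiquitin receptor, fell by 1.05, a call lost with length and GC trends removed (-0.51). Psmd2, a large scaffold subunit of the base, was at 109.6 and 91.4 in GV, 113.4 and 125.8 in MII, 136.4 and 126.4 in Btg4wt, and 135.2 and 88.5 in Btg4tm, with no call in either comparison. The other scaffold, Psmd1, was at 40.9 and 37.6 in GV, 94.5 and 88.6 in MII, 97.5 and 95.7 in Btg4wt, and 79.5 and 64.0 in Btg4tm. Psmd11, of the lid, was at 53.5 and 46.0 in GV, 106.5 and 98.9 in MII, 85.1 and 87.9 in Btg4wt, and 99.0 and 84.6 in Btg4tm. Both rose in MII, Psmd1 by 1.2 ± 0.13 (limma adjusted p = 7.6e-05) and Psmd11 by 1.04 ± 0.12 (limma adjusted p = 0.00015), but with scaling to mitochondrially encoded RNAs their values were -0.98 and -1.15. Psmd11 also lost its call without GV replicate 2 (0.93), without MII replicate 1 (0.98), in the TPM as deposited (0.88) and with length and GC trends removed (0.67).

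Among the core chaperones, Psmg4 was at 122.2 and 145.0 scaled TPM in GV, 9.75 and 10.8 in MII, 16.0 and 16.7 in Btg4wt, and 87.3 and 110.6 in Btg4tm, a log2 fold change in MII of -3.58 ± 0.15 (limma adjusted p = 8.5e-07). Psmg1 was at 198.3 and 181.9 in GV, 144.8 and 159.9 in MII, 121.9 and 137.8 in Btg4wt, and 180.6 and 180.3 in Btg4tm, and was not called. Psmg1 acts with Psmg2, and Psmg3 with Psmg4, in building the α ring. Psmg2, the lowest of the set in GV and MII, had a log2 fold change of -1.81 ± 0.45 (called lower) and lost its call without GV replicate 1 (-1.51). Of the particle's chaperones, Psmd10, also known as gankyrin, was at 317.5 and 282.1 in GV, 88.0 and 77.0 in MII, 85.7 and 71.8 in Btg4wt, and 282.1 and 287.4 in Btg4tm, a log2 fold change in MII of -1.85 ± 0.12 (limma adjusted p = 7.2e-06). Psmd9 was at 110.8 and 110.7 in GV, 109.1 and 93.9 in MII, 102.2 and 115.0 in Btg4wt, and 113.5 and 119.3 in Btg4tm, with values close to each other in all libraries.

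Of the other activators and regulators, Psmf1 (PI31) was at 247.1 and 238.7 scaled TPM in GV, 21.4 and 19.97 in MII, 27.2 and 20.3 in Btg4wt, and 157.9 and 157.6 in Btg4tm. Its log2 fold change in MII was -3.49 ± 0.14 (limma adjusted p = 7.6e-07). Psme2, an interferon-induced activator subunit, fell by 2.59. Psme4 (PA200), an activator that works without ubiquitin, was at 24.1 and 25.1 in GV, 78.2 and 68.4 in MII, 56.6 and 48.5 in Btg4wt, and 27.8 and 29.7 in Btg4tm. It showed the largest rise of the 43 genes, 1.53 ± 0.13 (limma adjusted p = 2.3e-05), which became -0.63 when scaled to mitochondrially encoded RNAs and lost its call with length and GC trends removed (0.62). Psme3, the nuclear activator, was at 80.3 and 83.9 in GV, 110.1 and 103.0 in MII, 102.0 and 128.0 in Btg4wt, and 112.3 and 107.4 in Btg4tm, and was not called.

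Mutant BTG4 was compared with wild-type BTG4, both overexpressed in oocytes that also make their own BTG4. The paper shows both forms by immunoblot and states that expressing them seemed to lower the endogenous protein. Whether the endogenous protein differed between Btg4tm and Btg4wt was not tested here. In Btg4tm, 21 of the 43 proteasome RNAs were higher than in Btg4wt (limma, same call rule), 0 were lower and 22 were not called, against 18.1% and 7.94% of all genes tested. Of the 43 genes, 31 were higher in both Btg4tm libraries than in both Btg4wt libraries and 5 were lower (37.6% and 36.7% of all genes tested). At an unadjusted p under 0.05 there were 31 of the 43 genes in either direction, against 7759 of the 13968 tested. The median log2 fold change was 0.93, against 0.01 over all genes. Core subunits (7 of 14), subunits of the regulatory particle (8 of 17) and assembly chaperones (4 of 7) were all among those higher. The largest differences were 4.51 ± 0.17 for Psmb1, 4.33 ± 0.17 for Psmb4, 4.26 ± 0.24 for Psmb7, 3.51 ± 0.12 for Psmc2 and 3.15 ± 0.38 for Psmb5, with limma adjusted p of 1e-06, 1.3e-06, 4.9e-06, 9e-07 and 0.00025. These were the same 5 RNAs that fell most in MII, where Psmb5 ran from -4.65 to -3.22 when single libraries were left out and, without MII replicate 1, stood behind Psmg4 and Psmf1. With length and GC trends removed, Psmb6, Psmc1 and Psmd14 lost their call (0.90, 0.63 and 0.96), and without Btg4wt replicate 1, Psma5 (1.06) and Psmg2 (1.60) gained one. Psmb11 gained a call without Btg4tm replicate 2 (1.04), with the trends removed (1.13) and with a pseudocount of 0.1 (1.21), and Psmd13 with that pseudocount (1.46), while Psmc1 also lost its call with quantile normalization (0.85). With scaling to mitochondrially encoded RNAs 35 genes were called higher.

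All 21 RNAs that were higher in Btg4tm were among the 25 that fell in MII, although the comparisons share no library. Over all genes tested, 2345 genes fell in MII and were higher in Btg4tm, which is 70.0% of the 3351 that fell and 92.5% of the 2534 that were higher. The other 4 of the 25 were Psmb11, Psmd13, Psmd4 and Psmg2, with log2 fold changes in Btg4tm of 0.92, 0.76, 0.79 and 0.85. Psmg2 was at 1.83 scaled TPM in 1 Btg4wt library and was listed at 0 in the other. The difference in Btg4tm divided by the fall in MII, both as log2 values, was 85.1% at the median of the 25 genes, against 76.5% over the 3351. It ran from 44.7% for Psmd13 to 103% for Psmb4 and Psmd5, and was over 100% for 3 genes.

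**Figure D4:**
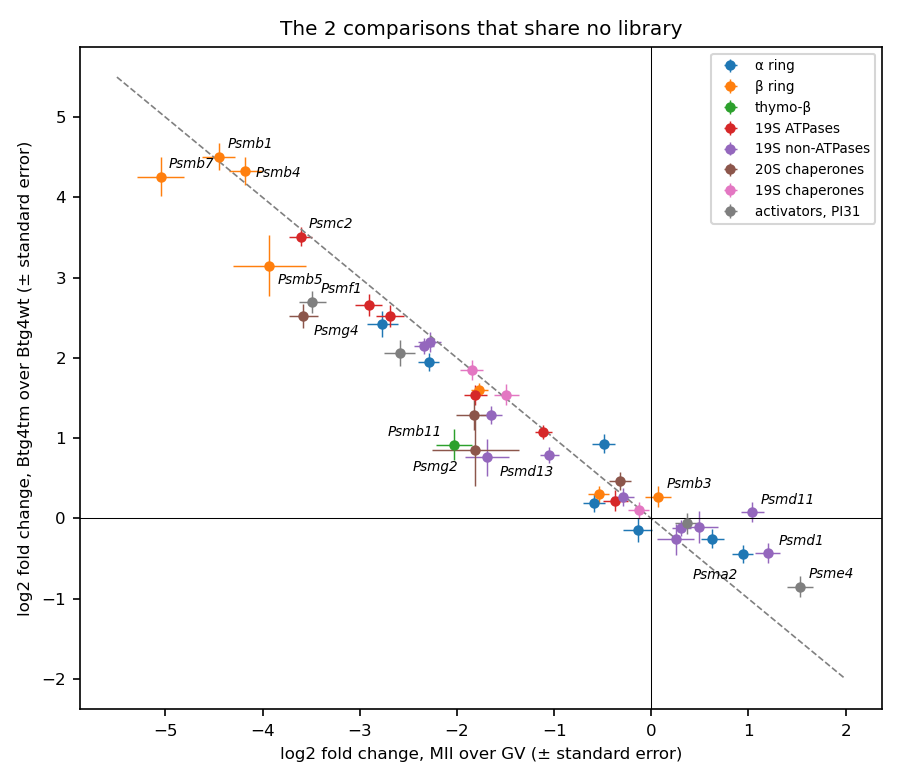
Log2 fold change of each proteasome RNA in MII over GV (x axis) and in Btg4tm over Btg4wt (y axis), with standard errors and a colour per complex. The dashed line marks equal and opposite values. The RNAs that fell most in MII lie at the upper left near that line, and the 3 that rose in MII at the right, where under scaling to mitochondrially encoded RNAs they would lie left of 0.

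None of the 3 RNAs that rose in MII was called in Btg4tm. Psme4 was lower in both Btg4tm libraries than in both Btg4wt libraries, with a log2 fold change of -0.85 ± 0.13 (limma adjusted p = 0.00088) under the fold limit, and 0.21 when scaled to mitochondrially encoded RNAs. Psmd1 had -0.43 ± 0.13, and Psmd11 had 0.08 ± 0.12 with overlapping libraries.

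Wild-type BTG4 injection gave no call among the 43 genes against uninjected MII oocytes (limma, 0 called, with 6 at an unadjusted p under 0.05). Over all genes tested 0% were called, and 1655 had an unadjusted p under 0.05. The log2 fold changes of the 43 genes had a median of 0.04 and ran from -0.47 for Psme4 to 0.73 for Psmb7. This comparison shares the MII libraries and the Btg4wt libraries with those above.

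Against GV oocytes, 1 proteasome RNA was lower in Btg4tm and 0 were higher (limma, with 13 of the 43 genes and 4147 of all 13968 at an unadjusted p under 0.05), where 1.02% of all genes tested were called in each direction. The log2 fold changes had a median of -0.12, against -0.08 over all genes. The 1 call was Psmd13, of the lid, at 3.73 and 4.69 scaled TPM in GV, 0.401 and 0.837 in MII, 0.493 and 0.476 in Btg4wt, and 1.59 and 1.44 in Btg4tm, a log2 fold change of -1.05 ± 0.23 (limma adjusted p = 0.026). The call was lost when any 1 of these GV or Btg4tm libraries was left out. Psmd1 and Psmd11 were above their GV level in both Btg4tm libraries, with log2 fold changes of 0.85 ± 0.13 and 0.87 ± 0.12, and Psmf1 was below it, at -0.62 ± 0.14 (limma adjusted p of 0.0075, 0.0066 and 0.031), all under the fold limit.

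Transcript length was compared as a description. The principal transcripts of the 25 RNAs that fell in MII had a median length of 1430 bases, those of the 15 not called 1581 and those of the 3 that rose 3112. For the longest transcript of each gene the medians were 1819, 1581 and 3112, so the order of the first 2 groups depends on the transcript chosen. Spearman's rho across the 43 genes between the principal length and the log2 fold change in MII was 0.31, and with the GV level it was -0.10, over genes that share the same libraries. Across 13818 genes the rho for the length of the longest transcript was also 0.31. With length and GC trends removed, the median log2 fold change in MII was -1.11, against -1.65. Relative to the median of all genes tested these were -0.99 and -1.65.

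Several of these genes have close copies in the genome, and reads that map equally well to more than 1 place are lost. Of the 43 longest transcripts, 23 shared no stretch of 50 bases with another annotated gene, and 6 shared over 40% of their length, namely Psmb5 (78.9%), Psme2 (76.6%), Psma5 (73.4%), Psmd2 (54.2%), Psma4 (54.0%) and Psmc1 (47.4%). Their levels are less certain. Some exonic bases are shared with neighbouring genes, most in Psmd9 (25.5%), Psmb5 (12.1%), Psmb7 (11.8%) and Psmd13 (10.1%). For Psmd9, Psmb7 and Psmd13 the neighbour lies on the other strand, and counting ignored strand. For Psmb5 it is Mir686, on the same strand. Strand therefore does not assign reads of these bases to a gene here.

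Other genes of the pathway were read from lists. Of 10 proteasome genes with other symbols, 1 fell and 1 rose in MII, and 1 was higher in Btg4tm. Over all genes tested 24% fell and 12.5% rose in MII, and 18.1% were higher in Btg4tm, so this list held no excess of calls. Adrm1, a ubiquitin receptor of the particle, fell by 3.02 ± 0.15 (limma adjusted p = 1.6e-06) and was 2.32 ± 0.15 higher in Btg4tm. The chaperone Pomp, which completes the β ring, had -0.73 in MII and 0.74 in Btg4tm, under the fold limit. Among the shuttle factors and ubiquitin genes, the ubiquitin precursors Rps27a and Ubb fell in MII, with log2 fold changes of -5.07 and -1.86, and were 4.30 and 1.80 higher in Btg4tm. The genes of these lists that rose in MII were Ube3c, a ligase bound to the proteasome (1.09), the shuttle factors Ubqln1 and Ubqln2 (1.16 and 1.23), and, of 4 regulators of proteasome genes, Ddi2 (1.14) and Nfe2l1 (1.08), the transcription factor that raises subunit expression when proteasome activity is short. All 5 were below 0 when scaled to mitochondrially encoded RNAs (-1.04 to -0.85). In the TPM as deposited, Ddi2 (0.99), Nfe2l1 (0.93) and Ube3c (0.95) lost their calls, and with length and GC trends removed Ddi2 (0.33), Ube3c (0.51), Ubqln1 (0.94) and Nfe2l1 (0.98) did. Nfe2l1 also lost its call without GV replicate 1 (0.83) or MII replicate 1 (0.92), Ubqln2 without GV replicate 1 (0.85) and Ube3c without MII replicate 2 (0.99). Nfe2l1 had a log2 fold change of -1.06 ± 0.20 in Btg4tm over Btg4wt (limma, called lower), a call lost without Btg4wt replicate 1 or Btg4tm replicate 2, with length and GC trends removed, and when scaled to mitochondrially encoded RNAs (-0.04).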

How the data were processed

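The deposited TPM of 8 Smart-seq2 libraries were used, 2 each of GV, MII, Btg4wt and Btg4tm, while the sample protocol speaks of 3 samples per group. Per the labels and the methods, the authors trimmed reads with Trim Galore 0.6.10, aligned them to GRCm38 with HISAT2 2.2.0, and counted exonic reads with featureCounts 2.0.6, without strand and at a mapping quality of at least 10. Reads that map equally well to gene copies are dropped by this limit. TPM keep no depth, so counting error is unknown and precision rests on 2 libraries per group. A DESeq2 test as in the study needs counts and was not used.

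Scaling was by median-of-ratios factors (0.948 to 1.11), and values were fitted as log2(scaled TPM + 1) with limma 3.58.1 in R 4.3.3 (eBayes with trend), over all 8 libraries and 13968 genes, each reaching 1 TPM or more in 2 or more libraries. The pseudocount understates changes of low genes. Calls needed a Benjamini-Hochberg adjusted p under 0.05 with a log2 fold change beyond 1 in size. The fit was tested on simulated log2 values with the level and spread of each gene. No shifts between libraries were simulated, so the scaling was not tested in this way. Positions, lengths and 3′ ends came from GENCODE M21 on GRCm38, in which 15610 genes matched by symbol and 176 by a synonym. Genes given library by library were, in each complex, those with the largest and smallest change in MII, those called against the majority, Psmb11, the 5 largest changes of each main comparison, and Psmd13. The 43 genes and all lists were chosen with earlier results of these data known. Alternatives were other scalings, pseudocounts, filters, variance models and call rules, length and GC trends, a replicate block, and leaving out each library. Some results for genes of the pathway lists and some sequences are not reported here.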

Additional observations from a re-analysis of the deposited data

How the results depend on the processing

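In MII over GV, Btg4tm over Btg4wt and Psmd13 in Btg4tm over GV, 1466 of the 1561 values of single genes under the alternatives kept their direction and their side of the call. These include fits that cannot change a log2 fold change, such as the replicate block or leaving out a library of another group. With scaling to mitochondrially encoded genes 47 values kept both, 19 changed direction and 21 others gained a call. A filter at 5 TPM left out Psmd13 and Psmg2, and the rule without a minimum fold was applied to counts only. With scaling to mitochondrially encoded genes the median of all genes was -1.74 in MII over GV, 0.88 in Btg4tm over Btg4wt, 0.39 in Btg4wt over MII and -0.64 in Btg4tm over GV, against 0.00, 0.01, 0.02 and -0.08. The medians of the 43 genes were then -3.32, 2.01, 0.52 and -0.75, or -1.58, 1.13, 0.13 and -0.11 relative to all genes. With this scaling 41 genes were lower and 0 higher in MII, 35 were higher in Btg4tm, 7 were lower in Btg4tm than in GV, and the share regained was 63.0%. Which scaling stands nearer to RNA per oocyte was not tested.

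The median in MII over GV was -1.80 in the TPM as deposited, -1.35 with quantile normalization, -1.49 with a filter at 5 TPM and -1.11 with length and GC trends removed. Relative to the median of all genes these values were -1.68, -1.63, -1.55 and -0.99, against -1.65 in the main fit. In Btg4tm over Btg4wt the median was 0.78 with quantile normalization, 1.32 with a pseudocount of 0.1, 1.08 at 5 TPM and 0.63 with the trends removed. Relative to the median of all genes these values were 0.97, 1.31, 1.08 and 0.55, against 0.92 in the main fit. In Btg4tm over GV the median was -0.28 as deposited and -0.17 with quantile normalization, here not taken relative to all genes. Quantile normalization called 1 gene, Psme4, lower in Btg4tm (-1.05). The 1 lower call in Btg4tm over GV became 0 with quantile normalization, a pseudocount of 0.1, a filter at 5 TPM, the 4 libraries alone, or the trends removed. With no minimum fold change 7 genes were higher and 31 lower in MII, 27 were higher and 3 lower in Btg4tm, and 3 higher and 2 lower in Btg4tm than in GV.

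Leaving out 1 library leaves its group with 1, which is assumed to vary like the other groups. The counts in MII over GV then ran from 24 to 25 lower and 2 to 4 higher (median -1.66 to -1.5), those in Btg4tm over Btg4wt from 21 to 23 higher (median 0.88 to 1.06), and those in Btg4tm over GV from 0 to 1 in each direction (median -0.15 to -0.11). The median in Btg4wt over MII ran from 0.00 to 0.08, and the share regained from 83.6% to 90.6%.

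Each group holds 1 library of each replicate number, so the number as a block cannot change log2 fold changes or medians (-1.65 and 0.93). Calls can change, but their counts stayed at 25 lower and 3 higher in MII and 21 higher in Btg4tm. No other call of the 43 genes changed. Deviations of libraries with the same number correlated between -0.0539 and 0.0555, so no common shift was seen. This cannot show whether libraries with the same number were prepared together.

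Values changed sign as follows, and the cause was not tested. In MII over GV, scaling to mitochondrially encoded genes gave Psma2 -1.27, Psma7 -1.59, Psmb3 -2.14, Psmd1 -0.98, Psmd11 -1.15, Psmd2 -1.94, Psmd3 -1.64, Psmd7 -1.89, Psme3 -1.82, Psme4 -0.63, Ddi2 -0.99, Nfe2l1 -1.01, Ube3c -0.89, Ubqln1 -1.04 and Ubqln2 -0.85. Removing length and GC trends gave Psma4 0.29, Psma5 0.15, Psmb2 0.25, Psmd12 0.01, Psmd9 0.15 and Psmg1 0.55, quantile normalization gave Psma4 0.03 and Psmd9 0.06, and Psmb3 was -0.09 as deposited and ran from -0.08 to 0.21 when single libraries were left out. In Btg4tm over Btg4wt, scaling to mitochondrially encoded genes gave Psma2 0.65, Psma4 0.94, Psma7 0.83, Psmd1 0.64, Psmd2 0.82, Psmd3 0.95, Psmd7 0.96, Psme3 1.02, Psme4 0.21, Ddi2 0.57, Ube3c 0.57 and Ubqln1 0.35. Removing the trends gave Psma1 -0.30, Psmb2 -0.36, Psmb3 -0.22, Psmd12 -0.02, Psmd9 -0.09, Psmg1 -0.24, Ddi2 0.34 and Ube3c 0.12, and quantile normalization gave Psmc6 -0.04, Psmd11 -0.17 and Psmd9 -0.10. Leaving out single libraries gave -0.31 to 0.03 for Psma4, -0.22 to 0.11 for Psme3, -0.56 to 0.04 for Psmd2, -0.30 to 0.08 for Psmd3 and -0.03 to 0.19 for Psmd11.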
